A study of Mus musculus with 8 samples.

Results

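The genes examined were 41 mouse genes for chemokines, cytokines and their receptors that take part in inflammation after myocardial infarction (MI), out of 37273 genes annotated on the autosomes, X and Y of the mouse build mm9. They were chosen by symbol from the GENCODE annotation, and each of the 41 symbols matched 1 gene. Of these, 10 were Ccl genes on chromosome 11, 8 were Cxcl genes on chromosome 5, and 23 lay elsewhere and are called single genes. Chromatin immunoprecipitation with an antibody against BRG1, followed by sequencing, was carried out on C57BL/6 mouse hearts. Adult mice of 10 to 12 weeks received daily intraperitoneal injections of PBS or of 12 mg per kg of thymosin β4 (Tβ4) for 1 week, termed priming. A coronary artery was then closed to cause MI, with PBS or Tβ4 given again that day (day 0) and on day 2, and the chromatin is from day 4. The age is that of the labels, and the paper's methods give a different range for adult mice. There were 8 libraries in 4 groups of 2, namely BRG1 ChIP and input (chromatin without immunoprecipitation) from PBS-primed and from Tβ4-primed hearts. The number of hearts behind a library is not given in the sources used here.

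The values come from a deposited list of 524614 regions in which BRG1 ChIP exceeded input in Tβ4-primed, injured hearts. Only positions are listed, with no height or p-value, and the duplicates are not separated. The PBS-primed hearts were not analysed here, no replicate spread or depth could be computed, and no difference between samples was tested. Whole heart holds cardiomyocytes, stromal cells and, after MI, infiltrating leukocytes. A list of DNA regions does not tell from which of these a region came, nor does it allow the tissue to be checked by marker genes.

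BRG1 is the motor subunit of a class of chromatin remodellers and helps to open promoters and enhancers to transcription factors. Chemokines are small secreted proteins that guide leukocytes through G protein-coupled receptors. In the injured heart, ligands of CXCR2 attract neutrophils and ligands of CCR2 attract monocytes, while interleukins, tumour necrosis factor and colony-stimulating factors act on the cells that arrive. Many chemokine genes arose by tandem duplication and lie side by side, and NF-κB is a well-known activator of several of them.

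The sequences before the transcription start sites (TSSs) of cluster genes show how neighbours differed in their cover by BRG1 regions. Ccl12 and Ccl8 both encode CC ligands of the monocyte chemoattractant family. They are neighbours on chromosome 11, with 11.8 kb between the genes. All 250 bases before the Ccl12 TSS, at chr11:81915097-81915346 of mm9, lay inside a region, and 0 of the 250 bases before the Ccl8 TSS, at chr11:81928437-81928686, did so. Both are given from 5′ to 3′ on the + strand, the strand of the genes.
Ccl12: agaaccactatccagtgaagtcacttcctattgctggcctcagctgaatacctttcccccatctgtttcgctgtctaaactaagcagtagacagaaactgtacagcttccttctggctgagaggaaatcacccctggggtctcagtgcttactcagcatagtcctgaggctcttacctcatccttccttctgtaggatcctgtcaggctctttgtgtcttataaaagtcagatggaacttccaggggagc
Ccl8: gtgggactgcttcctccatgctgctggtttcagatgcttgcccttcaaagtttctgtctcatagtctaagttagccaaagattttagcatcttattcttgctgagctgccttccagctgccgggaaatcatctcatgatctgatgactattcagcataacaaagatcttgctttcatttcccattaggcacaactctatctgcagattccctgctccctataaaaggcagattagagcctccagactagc

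Cxcl5, Cxcl3, Cxcl1 and Cxcl2, whose products attract neutrophils through CXCR2, are printed next in their order along chromosome 5, again for the + strand. The stretches lie at chr5:91188075-91188324 for Cxcl5, chr5:91214879-91215128 for Cxcl3, chr5:91320017-91320266 for Cxcl1 and chr5:91332647-91332896 for Cxcl2. Capitals mark matches on either strand to a κB motif of NF-κB (GGANTTTCC) or to a C/EBP motif (TTGCNNAA). The 4 stretches share the κB letters GGAATTTCC, which begin 28 bases before the TSS of Cxcl5, 74 before that of Cxcl3, 66 before that of Cxcl1 and 68 before that of Cxcl2. The first capitals in Cxcl5 are the C/EBP match. Regions held all 250 bases of the Cxcl5 stretch, 43 bases at the far end of the Cxcl2 stretch, and 0 bases of the other 2.
Cxcl5: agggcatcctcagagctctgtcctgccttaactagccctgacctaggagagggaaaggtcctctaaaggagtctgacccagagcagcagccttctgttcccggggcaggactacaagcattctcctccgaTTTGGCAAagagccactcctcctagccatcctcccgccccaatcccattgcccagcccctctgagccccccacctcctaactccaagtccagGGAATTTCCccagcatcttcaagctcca
Cxcl3: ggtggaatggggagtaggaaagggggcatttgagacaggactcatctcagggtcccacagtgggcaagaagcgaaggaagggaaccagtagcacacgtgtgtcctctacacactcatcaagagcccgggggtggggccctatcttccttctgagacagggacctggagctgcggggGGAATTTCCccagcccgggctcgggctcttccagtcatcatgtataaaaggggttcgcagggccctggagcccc
Cxcl1: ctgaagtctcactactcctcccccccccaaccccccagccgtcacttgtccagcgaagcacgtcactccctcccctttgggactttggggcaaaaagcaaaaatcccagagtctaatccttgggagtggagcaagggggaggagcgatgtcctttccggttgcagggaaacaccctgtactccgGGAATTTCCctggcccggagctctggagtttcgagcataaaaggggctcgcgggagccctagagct
Cxcl2: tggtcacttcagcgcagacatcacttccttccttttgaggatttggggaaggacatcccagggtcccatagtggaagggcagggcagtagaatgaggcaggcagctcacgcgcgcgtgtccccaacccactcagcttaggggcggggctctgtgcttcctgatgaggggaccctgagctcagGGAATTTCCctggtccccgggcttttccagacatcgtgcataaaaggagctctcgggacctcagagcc

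Among members with no region over the TSS, 3 had their nearest region within 500 bp of the TSS and short enough, at no more than 300 bp, to be printed whole, leaving aside Csf1r. They were Cxcl2 (270 bp, chr5:91332420-91332689, + strand), Ccl11 (240 bp, chr11:81870750-81870989, + strand) and Ccl6 (210 bp, chr11:83406750-83406959, − strand). Each lay upstream of its gene and overlapped 0 bases of annotated exons. Capitals mark a C/EBP match in the region of Ccl6. Of all 27346 regions of 210 bp, 9.82% held that motif.
Cxcl2: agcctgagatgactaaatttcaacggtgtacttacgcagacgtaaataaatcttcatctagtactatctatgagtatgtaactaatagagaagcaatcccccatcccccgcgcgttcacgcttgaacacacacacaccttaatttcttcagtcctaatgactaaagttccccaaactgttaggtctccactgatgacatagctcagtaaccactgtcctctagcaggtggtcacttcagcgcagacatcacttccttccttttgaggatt
Ccl11: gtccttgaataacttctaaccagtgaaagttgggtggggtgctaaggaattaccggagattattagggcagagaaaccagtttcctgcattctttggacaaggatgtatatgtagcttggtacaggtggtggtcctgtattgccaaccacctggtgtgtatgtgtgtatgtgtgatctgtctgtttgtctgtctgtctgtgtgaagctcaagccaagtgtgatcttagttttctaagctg
Ccl6: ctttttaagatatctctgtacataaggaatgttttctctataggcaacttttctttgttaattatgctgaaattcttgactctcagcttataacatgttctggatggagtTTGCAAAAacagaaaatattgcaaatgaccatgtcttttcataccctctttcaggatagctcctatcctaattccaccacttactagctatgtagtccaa

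Across the 41 genes, BRG1 regions covered the genes about as much as genes in general. The window was the gene body with 5 kb flanks, and a region was counted when at least 1 bp overlapped it. Regions covered a median of 22.8% of the window (95% interval over genes 14.1 to 26.7%), against 24.0% for all genes and 25.2% for protein-coding genes. The interval comes from order statistics and treats genes as independent, although neighbours in a cluster are not. The middle 50% of all genes lay between 12.7 and 36.0%, with 10 members below and 10 above these limits. Among the 200 genes nearest in length to each member, the median percentile of the members was 43.5 (32.0 to 62.3) by covered share. With their windows pooled and each base counted once, 22.8% of 774435 bp was covered, and 25.8% of the chromosomes as a whole.

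How the number of regions at these genes compared with the typical gene depended on the window. Their density had a median of 0.273 regions per kb of window (0.204 to 0.339), against 0.222 for all genes, and 17 members exceeded the upper quartile of all genes of 0.303 while 10 were below the lower quartile of 0.160. By density the median percentile among genes of like length was 59.0 (39.5 to 75.5). With 2 kb flanks it was 46.0 (35.8 to 68.5), with a median density of 0.238 against 0.231 for all genes. With 10 kb flanks it was 60.5 (50 to 78.5), and the median density of 0.268 (0.239 to 0.339) had an interval above the 0.226 of all genes. With the shorter regions left out, the median density of the members was 0.132 and that of all genes 0.106. The 208 distinct regions in the windows had a median length of 570 bp, against 600 bp in the whole list, and 9.62% of them were at least 2 kb long, against 19.3% of all regions. Only 2 of the 208 regions reached the windows of 2 members, Ccl6 with Ccl9 and Cxcl1 with Cxcl2.

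**Figure D1:**
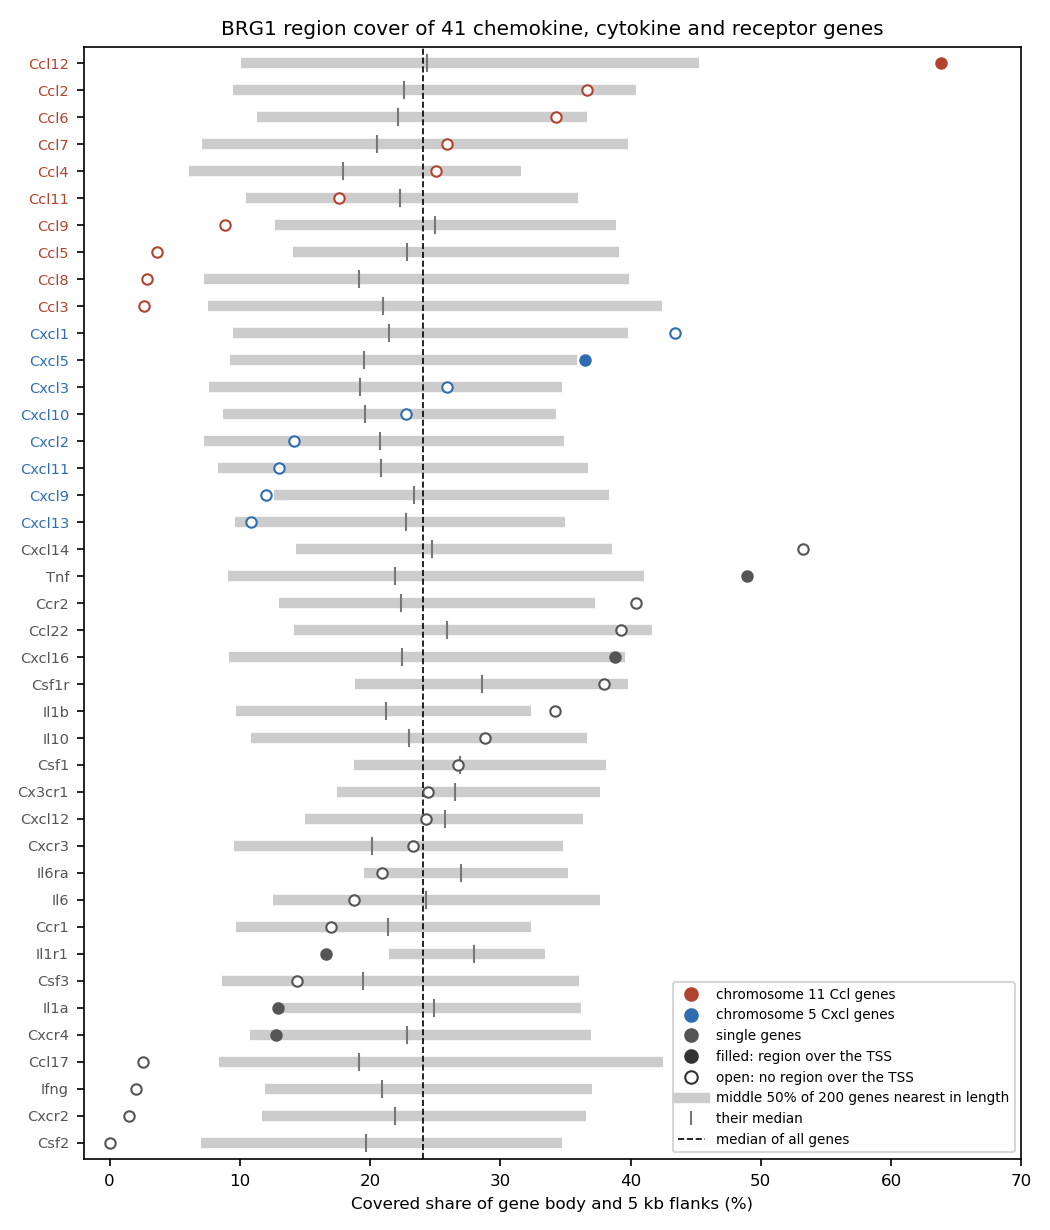
Covered share of the gene body and 5 kb flanks (%) for each of the 41 genes, by chromosome 11 Ccl genes, chromosome 5 Cxcl genes and single genes; filled points have a region over the TSS, grey bars span the middle 50% of the 200 genes nearest in length, and the dashed line is the median of all genes, 24.0%. Ccl12 reached 63.9%, and 7 genes from Ccl5 at 3.66% down to Csf2 at 0% were the lowest, each to the left of its bar.

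A region lay over the TSS of 7 of the 41 genes (17.1%, Wilson 95% interval 8.53 to 31.3%), compared with 24.7% of all genes and 24.2% of protein-coding genes. They were the ligand genes Ccl12, Cxcl5 and Cxcl16, the receptor genes Cxcr4 and Il1r1, and the cytokine genes Il1a and Tnf. Within 5 kb of the TSS, 38 of 41 genes (92.7%, 80.6 to 97.5%) had a region, against 89.9% of all genes. The exceptions were Ccl17, Ifng and Csf2. The gene body or its flanks held a region in 40 of 41 genes, against 95.1% of all genes, and the body itself in 25 of 41, against 68.4%. The regions covered a median of 20.7% of the 5 kb on either side of the TSS (9.30 to 28.5%), against 21.5% for all genes. Within 2 kb of the TSS the median was 8.25% (5.25 to 24.0%), against 14.7% for all genes. The 500 bp after the TSS were covered to 18.0% over the 41 genes and to 24.9% over all genes. In the 500 bp before it these shares were 21.0 and 25.5%.

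**Figure D2:**
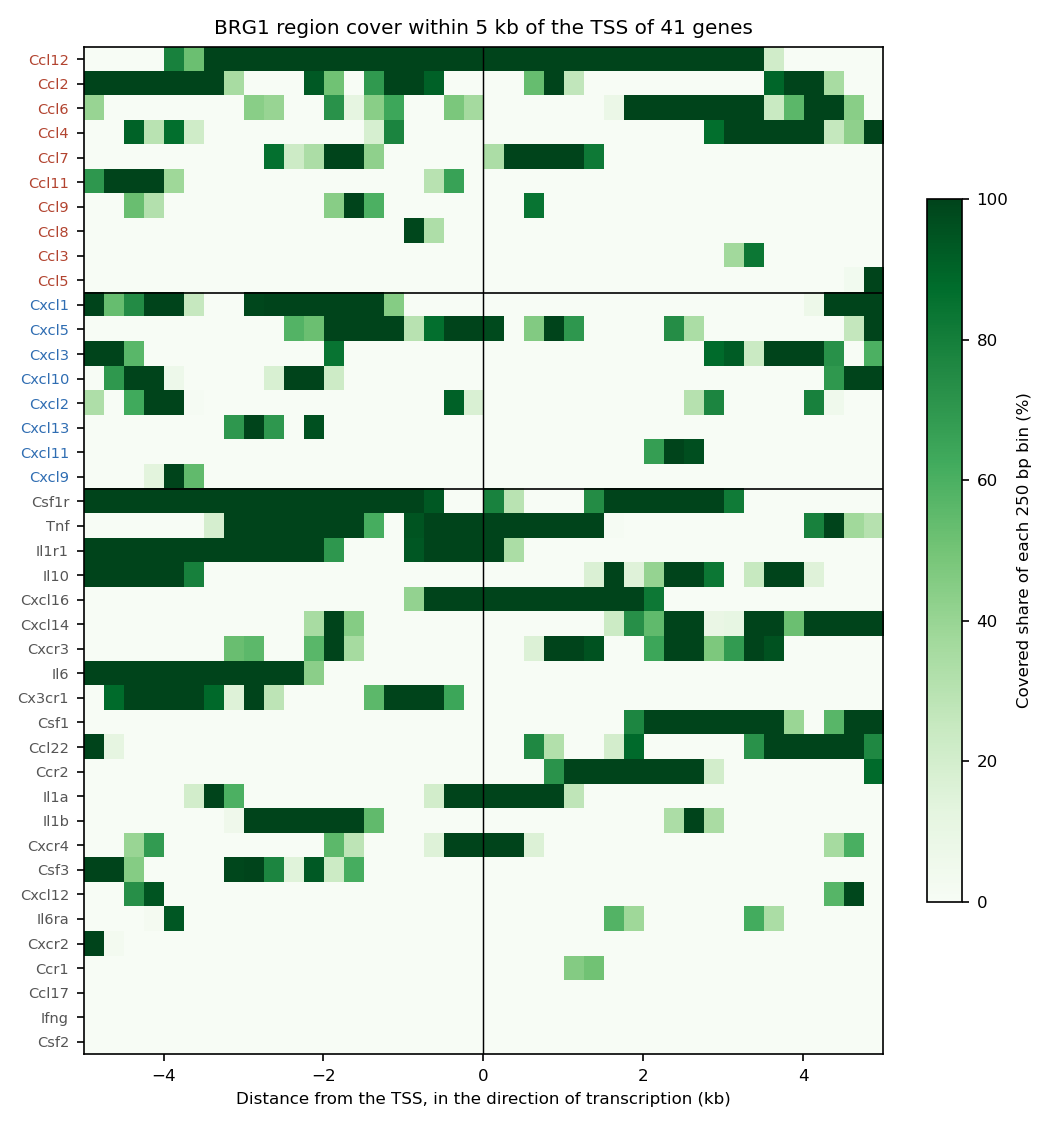
Covered share of 250 bp bins (%, shade of green) against the distance from the TSS in the direction of transcription (kb) for the 41 genes, with lines between chromosome 11 Ccl genes, chromosome 5 Cxcl genes and single genes. In the 7 genes with a region over the TSS the bins on both sides of the vertical line are shaded, and Ccl17, Ifng and Csf2 have no shaded bin.

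The Ccl genes of chromosome 11 showed both very high and very low cover. Their median covered share was 21.3% (2.84 to 36.7%, 10 genes), with 4 genes below the lower and 2 above the upper quartile of all genes. The genes formed 2 blocks 1.41 Mb apart. The block from Ccl2 to Ccl8 spanned 91.2 kb with its flanks (chr11:81844073-81935301), held 23 regions and was covered to 32.5%. The block from Ccl5 to Ccl4 spanned 149 kb (chr11:83334280-83483185), held 49 regions and was covered to 25.3%. Consecutive stretches of the same length along chromosome 11, after the unsequenced first 3 Mb, had a median cover of 26.2% and 26.3%, respectively, and 76.4% and 44.4% of them had less cover than the block.

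Among the ligands that attract monocytes, Ccl12 had the highest covered share of all 41 genes. A region of 7170 bp, the longest in any member window, ran from 3.62 kb before to 3.55 kb after its TSS (chr11:81911730-81918899) and took in the whole gene. With 1 further region, 63.9% of the window and 73.8% of the 5 kb around the TSS were covered, at the 90.5th percentile among genes of like length. Its density of 0.173 per kb lay only at the 29.8th percentile, since this region made up nearly all of the cover and the other was 210 bp long. The Ccl8 window, next to it, held a single region of 330 bp, which ended 668 bp before the TSS and covered 2.84% of the window and 3.30% around the TSS.

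Ccl2 encodes the main ligand of CCR2. Its window held 5 regions that covered 36.7%, and 43.6% around the TSS, where all 5 reached. The nearest region, of 900 bp, ended 524 bp upstream, and another of 450 bp lay within the gene, 617 to 1066 bp after the TSS. Ccl7, another CCR2 ligand gene, had 4 regions over 25.9% of its window, 3 of which lay within 5 kb of the TSS and covered 22.5% there. A region of 1290 bp began 166 bp after its TSS and covered 71.1% of the gene body. Ccl11, which encodes the eosinophil attractant eotaxin, had no region in its body. It had 3 in the window over 17.6%, and the 2 within 5 kb of its TSS covered 12.6%. The nearer, printed above, ended 336 bp upstream of the TSS. A region of 5400 bp began 8.73 kb after the TSS, and thus beyond the gene's end, toward Ccl12.

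In the other block, Ccl6 had the highest density of all 41 genes. Its window held 9 regions, 0.592 per kb, at the 97.0th percentile, with 2 in the body and 7 within 5 kb of the TSS. They covered 34.3% of the window and 35.8% around the TSS, and the nearest ended 161 bp upstream. Ccl9, a neighbour of Ccl6 that like it encodes a ligand of CCR1, had 5 regions, of which 1 lay in the body and 3 within 5 kb of the TSS. They were short, the longest being 510 bp, and covered 8.84% of the window and 9.30% around the TSS. The nearest, of 210 bp, began 509 bp after the TSS.

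Ccl3, Ccl4 and Ccl5 encode attractants of monocytes and T cells and had no region in their bodies as the list was read. Ccl5 had 1 region of 540 bp in its window, which abutted the gene's end, 4.74 kb after the TSS, and covered 3.66% of the window and 2.60% around the TSS. Its percentile was 6.00 by covered share and 4.25 by density. Ccl3 had 1 region of 300 bp, 3158 bp after its TSS, over 2.61% of the window and 3.0% around the TSS. Ccl4, which lies 13.2 kb from Ccl3, had 6 regions over 25.04% of its window and 5 over 27.0% around its TSS. Its nearest region, of 240 bp, ended 1057 bp upstream, and a longer one of 1530 bp began 2784 bp after the TSS. The 2 longest stretches of this block without a region, of 11.9 kb each, held Ccl5 and Ccl3. The positions in the list may be off by 1 bp, and moved by that much the region next to Ccl5 overlaps the gene's last base, which makes 26 members with a region in the body in place of 25.

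**Figure D3:**
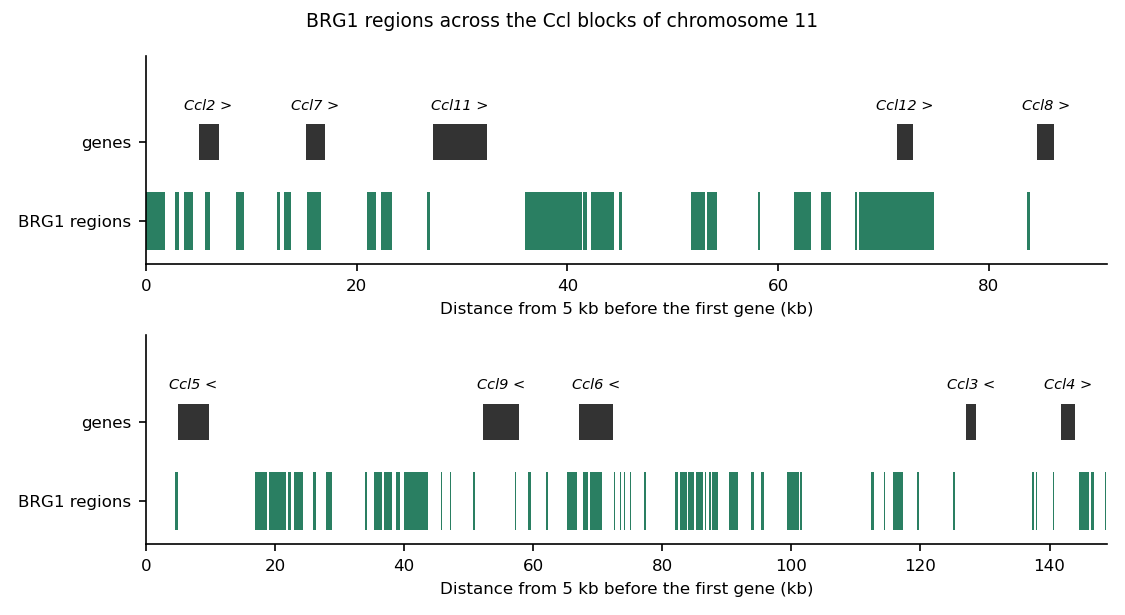
BRG1 regions (green) and the Ccl genes (black, with > or < for the direction of transcription) in the 2 blocks of chromosome 11, against the distance in kb from 5 kb before the first gene. In the upper block the region of 7170 bp spans Ccl12 while a single region of 330 bp lies near Ccl8; in the lower block regions crowd between the genes and few lie next to Ccl5 and Ccl3.

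The Cxcl genes of chromosome 5 had a median covered share of 18.5% (10.8 to 43.4%, 8 genes), with 2 genes below and 2 above the quartiles of all genes. The neutrophil-attracting and interferon-inducible genes formed separate blocks 1.42 Mb apart, and Cxcl13 lay alone, a further 3.59 Mb away. The block of Cxcl5, Cxcl3, Cxcl1 and Cxcl2 (chr5:91183325-91339935, 157 kb) held 52 regions and was covered to 25.4%, and 46.8% of stretches of that length on the chromosome had less cover. The block of Cxcl9, Cxcl10 and Cxcl11 (chr5:92745357-92799511, 54.2 kb) held 11 regions and was covered to 13.9%, with 15.2% of such stretches below it. The first block also holds Ppbp, Pf4 and Cxcl15, further CXC ligand genes.

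With 5 kb flanks, the 4 neutrophil-attracting genes were rich in regions. Their densities ran from 0.421 to 0.501 per kb, all above the upper quartile of all genes and at the 86.5th to 93.8th percentile of genes of like length. Their covered shares, from 14.1 to 43.4%, spread far more. In Cxcl5, 3 of 6 regions touched the gene body, and the region over the TSS, of 960 bp, ran from 715 bp before to 244 bp after it (chr5:91187610-91188569). The regions covered 36.5% of the window, and all 6 reached the 5 kb around the TSS, with 34.4% covered. Cxcl1 had the highest covered share of the 8 genes, 43.4% from 5 regions, and 37.6% around the TSS from 4. None of these touched the gene body, and the nearest, of 1860 bp, ended 1138 bp upstream. Only this nearest region came within 2 kb of the gene, so the high density of Cxcl1 holds for the wider flanks.

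Cxcl3 and Cxcl2 likewise had no region in their bodies. Cxcl3 had 6 regions over 25.9% of its window, with 5 over 24.4% around the TSS, and its nearest region of 210 bp ended 1780 bp upstream. Cxcl2 had 6 regions that covered only 14.1%, with 5 over 14.9% around the TSS. Its nearest region, printed above, ended 208 bp before the TSS. Cxcl2 thus stood at the 92.5th percentile by density and at the 39.0th by covered share.

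Cxcl9, Cxcl10 and Cxcl11 are the interferon-inducible genes of the family of CXCR3 ligands. Cxcl9 had 2 regions over 12.0% of the window and 1 over 4.20% around the TSS, which ended 3615 bp upstream. Cxcl10 had 3 regions over 22.8% and 19.6%, the nearest, of 600 bp, ending 1945 bp upstream. Neither had a region in its body. Cxcl11, which the annotation lists as a processed transcript with no coding sequence, had 4 regions over 13.0% of its window, 2 of them in the body. A single region, of 660 bp and 2082 bp after the TSS, covered 6.60% around the TSS. Cxcl13, which encodes an attractant of B cells, had no region in its body, 4 over 10.8% of the window and 2 over 8.40% around the TSS, the nearer ending 2006 bp upstream.

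**Figure D4:**
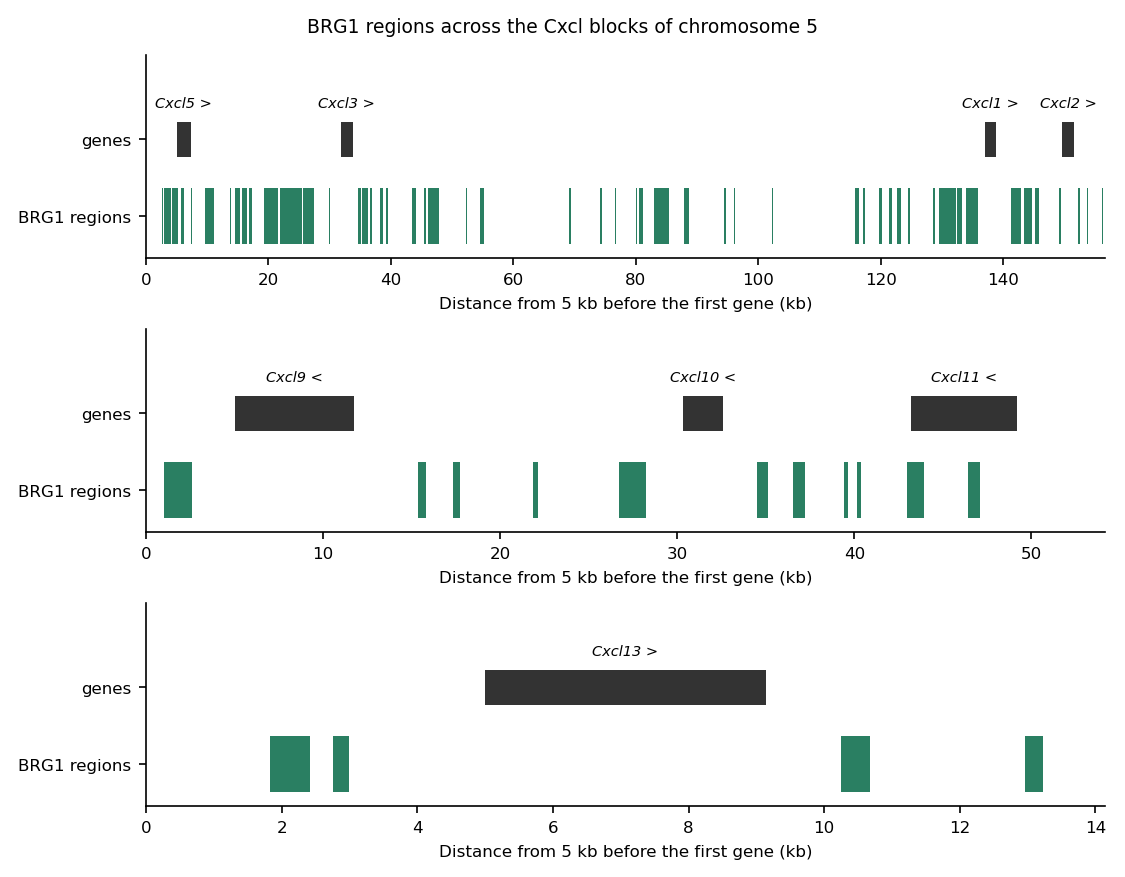
BRG1 regions (green) and the Cxcl genes (black, with > or < for the direction of transcription) of chromosome 5 against the distance in kb from 5 kb before the first gene, with a different scale in each panel. The block of Cxcl5, Cxcl3, Cxcl1 and Cxcl2 holds 52 regions in 157 kb, and the block of Cxcl9, Cxcl10 and Cxcl11 holds 11 in 54.2 kb.

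The covered share of the 23 single genes had a median of 23.3% (14.4 to 34.2%), which lies within the wide intervals of both clusters, that of the 8 Cxcl genes being their whole range. Of the single genes, 4 were below and 6 above the quartiles of all genes. With 2 kb flanks the median was 11.8% for the chromosome 5 Cxcl genes, 17.8% for the chromosome 11 Ccl genes and 20.2% for the single genes. With the shorter regions left out these medians were 11.9, 14.3 and 17.4%. With 10 kb flanks they were 21.7, 22.5 and 21.1%, with the single genes lowest. When cluster members without a neighbour within 500 kb counted as single genes, they were 22.8, 21.3 and 22.1%. The order of the 3 sets thus depended on these choices. Median density was 0.258 per kb for the chromosome 11 Ccl genes, 0.352 for the chromosome 5 Cxcl genes and 0.263 for the single genes. A region over the TSS was present in 1 of 10, 1 of 8 and 5 of 23 genes, respectively, against 24.7% of all genes. With the start of any annotated transcript as TSS, Ccl6, Cxcl11 and Csf1r gained such a region, and the share of all genes was 32.8%. The cluster genes were shorter, with median lengths of 1992 and 2290 bp against 6570 bp. Their windows also had less G and C, with medians of 43.3% and 42.5% against 48.3%, and the part of base composition in these values was not tested.

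**Figure D5:**
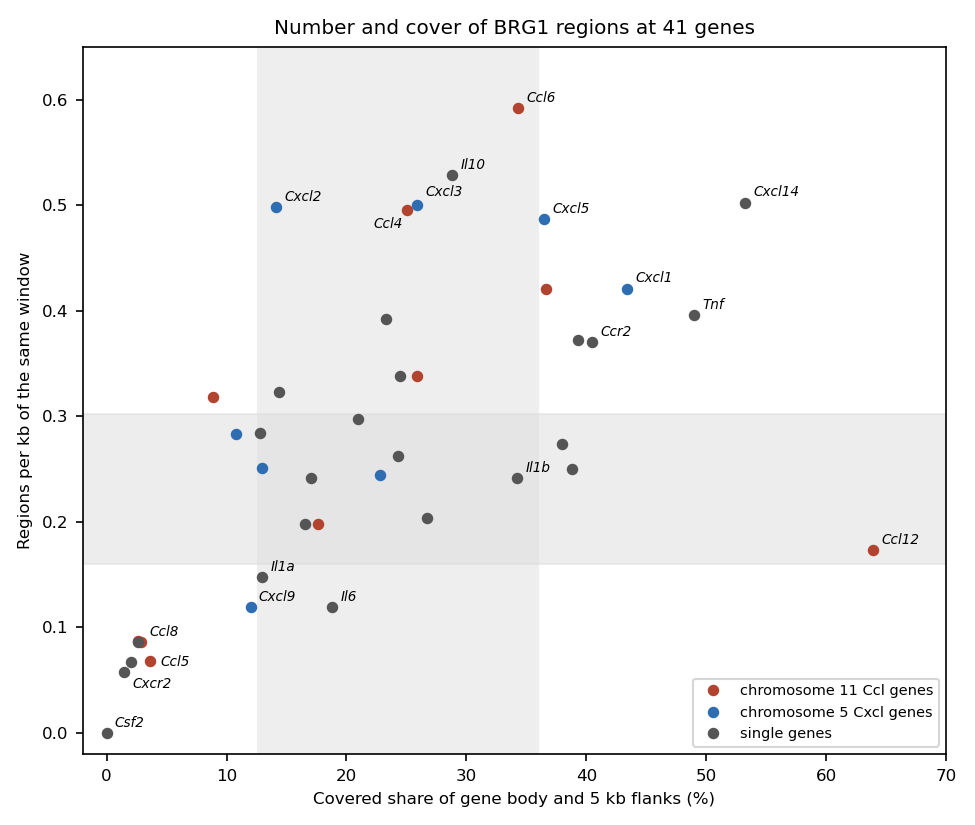
Regions per kb against covered share (%) of the gene body and 5 kb flanks for the 41 genes, coloured as chromosome 11 Ccl genes, chromosome 5 Cxcl genes and single genes, with selected names. Grey bands span the middle 50% of all genes on each axis; Ccl12 combines 63.9% cover with 0.173 regions per kb, and Cxcl2 combines 14.1% with 0.498.

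Of the single ligand genes, Cxcl14 had the highest cover. Its product attracts monocytes and dendritic cells. The window held 9 regions over 53.2%, at the 94.0th percentile, with 4 regions over 69.1% of the body and 5 over 30.1% around the TSS. A region of 5040 bp began 3.91 kb after the TSS, and the nearest region ended 1638 bp upstream. Cxcl16 encodes a membrane-bound ligand that also acts as a scavenger receptor. A region of 3060 bp over its TSS (chr11:70271280-70274339) was the only 1 that touched the body or lay within 5 kb of the TSS, where it covered 30.6%. With 3 further regions downstream, 38.8% of its window was covered. Cxcl12, which retains stem and progenitor cells through CXCR4, was near the median of all genes with 6 regions over 24.3%.

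Ccl22 and Ccl17 encode ligands of CCR4 and differed widely. Ccl22 had 6 regions over 39.3% of its window, 4 of them in the body, which was covered to 41.7%. The 4 within 5 kb of the TSS covered 24.4%, and the nearest, of 270 bp, began 560 bp after the TSS. Ccl17 had 1 region of 300 bp over 2.59% of its window and none in its body or within 5 kb of its TSS. The region nearest to its TSS, of 270 bp, lay 5504 bp upstream, outside the window.

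Among the receptor genes, Ccr2 and Cxcr2, which encode the main receptors of the monocyte- and neutrophil-attracting ligands, were far apart. Ccr2 had 8 regions over 40.4% of its window, at the 79.5th percentile, and 7 of them covered 50.8% of its body. Around its TSS 2 regions covered 22.0%, the nearer beginning 821 bp downstream, and a region of 4680 bp lay further within the window. Cxcr2 had 1 region of 1200 bp over 1.49% of its window, 4744 bp upstream of the TSS, which covered 2.57% around the TSS, and none in its body. Its percentile was 5. Cxcr4, the receptor of CXCL12, had 4 regions over 12.8% of its window, all within 5 kb of the TSS, where they covered 18.0%. The region over its TSS, of 1080 bp (chr1:130488330-130489409), extended 539 bp before and 540 bp after it and was the only 1 in the body.

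Ccr1, Cxcr3 and Cx3cr1 had covered shares of 17.0, 23.3 and 24.4%. Cx3cr1, a receptor of monocytes and resident macrophages, had 10 regions, and the nearest, of 1050 bp, ended 340 bp upstream of its TSS. For the receptor of colony-stimulating factor 1, Csf1r, which marks the macrophage lineage, regions covered 66.4% of the 5 kb around the TSS, at the 95th percentile, but not the TSS itself. A region of 5940 bp ended 517 bp upstream and another of 270 bp began 54 bp downstream, and 38.0% of its window was covered.

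Il1r1, the signalling receptor of interleukin-1, is the longest member at 91119 bp. It had 20 regions, 19 of them in the body, but they covered only 16.6% of the window and 13.8% of the body, at the 10.0th percentile. Around the TSS 2 regions covered 44.9%, at the 81.5th percentile. The region over the TSS, of 1320 bp (chr1:40280940-40282259), reached from 985 bp before to 334 bp after it, and a region of 7080 bp ended 1826 bp upstream. Il6ra had 16 regions over 20.9% of its window and 3 over 7.20% around its TSS, the nearest beginning 1605 bp downstream.

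Of the cytokine genes, Tnf had the highest cover. Its product is a central inflammatory cytokine of macrophages. The window held 5 regions over 48.9%, at the 84.0th percentile, and 4 regions covered 50.6% around the TSS. The flanks also take in the genes Lta and Ltb, and a counted region of 1950 bp lay within Lta. The region over the TSS, of 2490 bp (chr17:35337450-35339939), ran from 987 bp before to 1502 bp after it and covered 57.2% of the body. Il1a and Il1b encode the interleukin-1 ligands. In Il1a a region of 1620 bp lay over the TSS (chr2:129134640-129136259). With 2 further regions 13.0% of the window was covered, 2 regions lay in the body over 15.8%, and 2 covered 20.7% around the TSS. Il1b had no region over its TSS, the nearest ending 1365 bp upstream, but 34.2% of its window was covered by 4 regions.

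Il6 had 2 regions over 18.8% of its window, nearly all of it from a region of 4200 bp that ended 2142 bp upstream of the TSS. Il10, which encodes an anti-inflammatory cytokine, had 8 regions over 28.8%, at the 92.3rd percentile by density. Ifng had 1 region of 300 bp, 6357 bp after the TSS and beyond the gene's end, over 2.02% of its window, and none in its body or within 5 kb of its TSS. Interferon gamma is made chiefly by lymphocytes, and its percentile was 4.00.

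The colony-stimulating factor genes had covered shares of 26.7% for Csf1, 14.4% for Csf3 and 0% for Csf2. Csf2, which encodes GM-CSF, was the only member without any region in body or flanks. The nearest region to its TSS, of 1290 bp, ended 5351 bp upstream. Its percentile, 4.75, is the mid-rank it shares with every gene of like length that has no region. Csf1 had 6 regions with the nearest 1808 bp after the TSS, and Csf3 had 4, none in its body, with the nearest ending 1598 bp upstream.

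Pooled over bases, the introns and coding exons of the members were covered less than those of protein-coding genes as a whole. Regions held 19.2% of intron bases, against 27.5%, and 19.2% of coding bases, against 25.9%. The longest gene, Il1r1, supplied 31.3% of the intron bases, and with Il6ra 46.0%. Without Il1r1 the members' intron share was 21.6%, and without both it was 22.0%, a choice made after seeing the data. These pooled shares weigh genes by length, and the compared genes were not matched on it. The median length was 5130 bp for the members and 15427 bp for protein-coding genes, and the part of length in these shares was not tested. In non-coding exons the shares were 25.05 and 27.2%. Cover was 23.9% in the 5 kb upstream, against 26.5%, and 26.1% in the 5 kb downstream, against 26.3%.

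Motifs of inflammatory transcription factors were counted in the 250 bases before each TSS, on both strands. The κB motif occurred in 8 of the 41 genes (19.5%) and in 1.06% of all 37273. These were Ccl5, Cxcl1, Cxcl2, Cxcl3, Cxcl5, Cxcl10, Il6 and Csf1. Among them Cxcl1, Cxcl2, Cxcl3 and Cxcl5 lie in the same block and share the same κB letters, so the 8 genes are not independent. Of the 8 matches, that of Cxcl5 lay inside a BRG1 region, as did 28.1% of 399 such matches over all genes. The others lay 139 bp (Cxcl2) to 4822 bp (Ccl5) from the nearest region. An AP-1 motif (TGANTCA) occurred in 5 members (12.2%, all genes 6.57%), with the match of Il1a inside a region (25.6% of matches over all genes). The C/EBP motif occurred in 6 members (14.6%, all genes 9.40%), with those of Cxcl5 and Il1r1 inside regions (24.9% over all genes). An interferon-response motif (GAAANNGAA) occurred in 5 members (12.2%, all genes 8.63%), Ccl3, Ccl4, Cxcl9, Cxcl10 and Cxcl14. Of these matches 0 of 5 lay inside a region, against 24.7% over all genes. Shares of so few matches are imprecise. A match gives the letters only and does not show that a factor binds.

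Further genes of these pathways were taken from a list of 70, of which 69 matched the annotation. Their covered share had a median of 27.5% (22.3 to 32.9%), with 11 below and 23 above the quartiles of all genes, and 14 of 69 (20.3%) had a region over the TSS. Of all genes, 24.7% had such a region and the median covered share was 24.0%. The medians of the list's groups ran from 21.4% (9.91 to 37.0%) for 10 inflammatory signalling genes to 31.1% (21.7 to 41.7%) for 17 other chemokine receptors, with overlapping intervals. The highest shares were 67.8% for Cxcr1, 63.3% for Pf4 and 51.7% for Ccbp2, a decoy receptor of CC chemokines. Cxcr1 and Cxcr2, at 1.49%, are related receptors of neutrophils and stood near opposite ends. No region was found at Ccl20, Darc or Ifnb1.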

How the data were processed

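The samples, groups and times are those per the labels. The authors aligned paired reads to mm9 with Bowtie 1.0.0 and found regions with MACS2 2.0.10, as the submitters' processing notes name them. The methods name its bdgcomp function, but the deposited list is named like the output of a contrast between conditions, which leaves the command uncertain. How the replicates were handled is not given in the sources used here. The list holds starts and ends in bp, and 0 regions overlapped or passed a chromosome end. Starts were read as 0-based, which may be off by 1 bp.

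Members and lists were chosen with earlier results of these data known. Covered shares and counts were computed with Python 3.11.15, numpy 2.4.6 and scipy 1.17.1 on the GENCODE annotation of mm9, with the 5′ end of the gene as TSS. On simulated regions they equalled those of bedtools 2.31.1 for 37273 of 37273 genes. Sequences were read from the mm9 genome. Region counts, covered shares and the region nearest to the TSS were given for all cluster genes, all members with a region over the TSS, and the 4 single genes with the highest and the 4 with the lowest covered share, and of further pathway genes the covered shares of the 3 highest and 3 lowest. Pairs and genes singled out beyond this, and the motifs, were chosen after the values were seen.

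A broad enriched stretch may be listed as several regions, which bears on counts more than on cover: joining regions within 500 bp gave a median density of 0.212 per kb (all genes 0.172) and left the median cover at 22.8% (all genes 25.8%). Regions could not be weighted by strength, and sequencing depth is unknown. Alternatives changed the joining of regions, the window, the overlap, the region length, the TSS, the compared genes and the cluster definition.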

Additional observations from a re-analysis of the deposited data

How the results depend on the processing

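Each value was recomputed under 14 alternatives where they applied, 76 values in all. Of the alternatives, 3 were chosen after seeing the data. They moved all regions by 1 bp or left out the longest members. Of the values, 72 lay within the interval of the value as reported or, for counts, within 1.5 times of it. With only regions at least as long as the median region, the median density of member windows was 0.132 per kb in place of 0.273, because fewer regions were counted, and that of all genes was 0.106 in place of 0.222. With 2 kb in place of 5 kb around the TSS, the median covered share there was 8.25% in place of 20.7%, and that of all genes 14.7% in place of 21.5%. Without the longest member and without the 2 longest, the pooled intron share was 21.6 and 22.0% in place of 19.2%. The interval of that share is binomial over bases and too narrow, as neighbouring bases are not independent. The causes were not tested. With the start of any annotated transcript as TSS, 10 members had a region over it in place of 7, and 32.8% of all genes did. The median covered share of member windows ranged from 16.3 to 22.8%, the median percentile by covered share from 42.5 to 47.5, and that by density from 46.0 with 2 kb flanks to 64.5. The median covered share of the chromosome 5 Cxcl genes ranged from 11.8% with 2 kb flanks to 22.8%, that of the chromosome 11 Ccl genes from 14.3 to 23.3%, and that of single genes from 17.4 to 24.96%. Intervals over 10 and 8 cluster genes are wide, and a median within them can still differ. No paired analysis was possible because the list does not separate the replicates and no test was made. The unknown depth limits what an absent region can show.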
